A study of Homo sapiens with 9 samples.

Results

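The genes described here are the 8 condensin subunit genes SMC2, SMC4, NCAPD2, NCAPG, NCAPH, NCAPD3, NCAPG2 and NCAPH2, together with TOP2A and MKI67. They were taken by gene name from the expression lists of a study of a rimonabant derivative, and they are 10 of the 27615 genes listed. The study sequenced polyadenylated RNA of the established human triple-negative breast cancer line MDA-MB-231. Cells had received DMSO as vehicle, rimonabant, or TXX-1-10, and each of these 3 groups has 3 libraries, 9 in all. Rimonabant blocks the cannabinoid receptor CB1. TXX-1-10 was made from rimonabant and, by the study's description, carries a quaternary ammonium salt group at the third position of the pyrazole ring. All 9 libraries come from this 1 cell line, and how much of each compound these cells received, and for how long, is not given in the sources used here. The comparisons ask how each compound changed these genes against vehicle, and how the derivative differed from its parent compound.

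Condensins are ring-shaped complexes that compact and stiffen chromosomes in mitosis. SMC2 and SMC4 form the ATPase core of both condensin complexes, and each complex adds its own kleisin and HEAT-repeat subunits, which are NCAPH, NCAPD2 and NCAPG in condensin I and NCAPH2, NCAPD3 and NCAPG2 in condensin II. Condensin II is nuclear throughout the cell cycle, whereas condensin I reaches the chromosomes after nuclear envelope breakdown. TOP2A is the topoisomerase II isoform of dividing cells, which untangles sister DNA and is the target of etoposide and doxorubicin, and Ki-67, the product of MKI67, coats mitotic chromosomes and is the usual marker of proliferation in breast tumour sections.

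Each library has a list of genes with a read count and an FPKM value, which is the count per kilobase of gene length and scaled to a library size. The library sizes recovered from count, FPKM and length were 17078370 to 19277808. In vehicle replicates 1 and 3 the listed counts add up to more than this size (17492638 and 17383157 reads), so it is not a plain read total, and how it was made is not given in the sources used here. The lists as used here end at different points, so only 4237 genes have values in every library, and a fit of 9 libraries tested the 4236 whose mean FPKM reached 1. Rimonabant replicate 1 has the shortest list and holds 8 of the 10 genes. NCAPH and NCAPH2 are absent from it, which is not a value of 0, so their tests come from a fit of the other 8 libraries over 9369 genes, with 2 rimonabant libraries. Libraries of one group differed by a chi-square per degree of freedom of 2.29 to 6.76, except that pairs holding rimonabant replicate 1 or TXX-1-10 replicate 3 reached 24.3 to 42.2. Relative to its own replicates, each of these libraries had fewer reads on longer genes (Spearman rho -0.693 and -0.692 over 4237 genes), so results are also given without them. The cells carried markers of this mesenchymal line, with VIM at an FPKM of 224 to 329 and CD44 and EGFR listed in all 9 libraries, while CDH1 was listed at 0 and ESR1 at no more than 0.0314 in the 4 libraries that list them. Epithelial KRT18 was at 39.5 to 76.9 in all 9 libraries and EPCAM at 4.47 to 5.37 in 7, and markers of blood, endothelial and stromal cells (PTPRC, PECAM1, COL1A1 and DCN) were at no more than 0.798 where listed.

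All 10 genes were lower in TXX-1-10-treated cells than in vehicle-treated cells, and 9 of them were changed. The rule for a changed gene was a log2 fold change of 1 or more in size together with an edgeR adjusted p under 0.05. The 8 genes of the 9-library fit were all changed, where 7.6% of the 4236 genes were changed to a lower level. In the 8-library fit, NCAPH was changed and NCAPH2 was not, where 7.39% of 9369 genes were changed to a lower level. By the adjusted p alone all 10 were lower, where 43.8% and 40.6% of the genes of the 2 fits were. The median log2 fold change of the 10 genes was -1.61, beside medians over all genes tested of -0.095 with 9 libraries and -0.042 with 8. For all 8 genes of the 9 lists, the highest TXX-1-10 value was below the lowest vehicle value, as it was for 46.3% of the 4236 genes. In bulk RNA, fewer cells expressing a gene and less of its RNA per cell cannot be told apart. Nothing in the labels says whether the 3 libraries of a group came from separate cultures, so the p-values measure only the spread between these libraries, which may be technical.

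**Figure D1:**
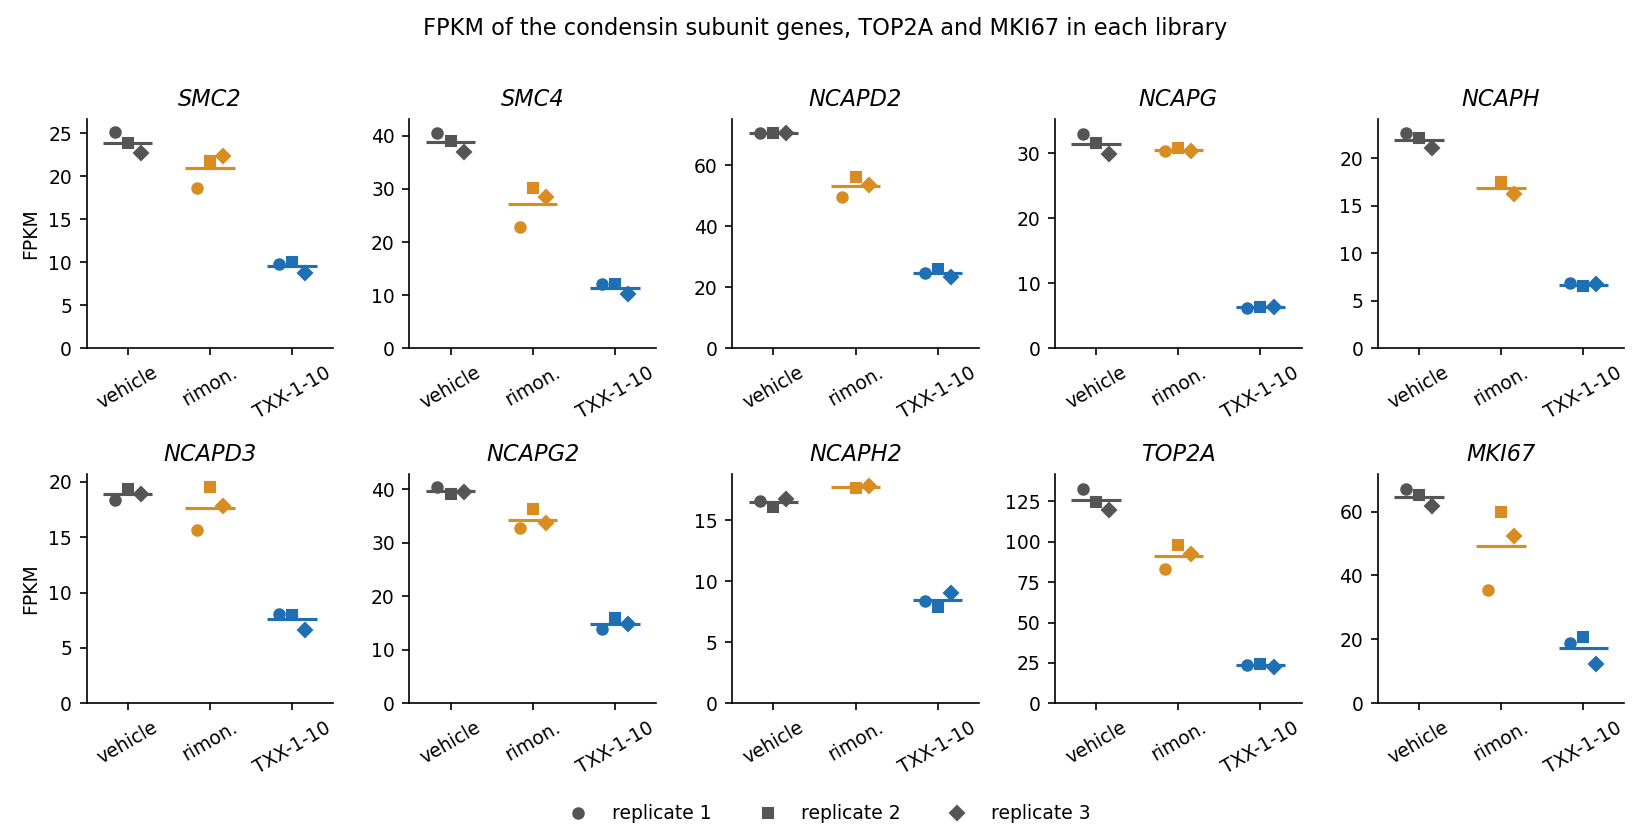
FPKM of each gene (vertical axes, linear and starting at 0) in each library of the vehicle, rimonabant (rimon.) and TXX-1-10 groups. Points are libraries, with a shape for each replicate number, and lines are group means. In every panel the 3 TXX-1-10 libraries lie below all vehicle and rimonabant libraries, and NCAPH and NCAPH2 have 2 rimonabant points because they are absent from the list of replicate 1.

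The genes of the shared SMC core both fell. SMC2 (ENSG00000136824, chromosome 9, 104094260 to 104141417, plus strand, GRCh38) had FPKM values of 25.1, 23.9 and 22.7 in vehicle replicates 1 to 3, 18.6, 21.7 and 22.4 in rimonabant replicates 1 to 3 and 9.85, 9.99 and 8.71 in TXX-1-10 replicates 1 to 3. The TXX-1-10 values were all far below the others, and the rimonabant values lay under the vehicle values, the highest of them just under the lowest vehicle value. Its log2 fold change under TXX-1-10 was -1.33 (standard error 0.08, edgeR adjusted p = 1.95e-07), which leaves 39.9% of the vehicle mean. SMC4 (ENSG00000113810, chromosome 3, 160399274 to 160434962, plus strand), the partner of SMC2 in the ring, was listed at 40.5, 39.0 and 37.0 with vehicle, 22.9, 30.2 and 28.5 with rimonabant and 12.0, 12.1 and 10.2 with TXX-1-10. The 3 groups formed 3 separate steps with no overlap. On the log2 scale TXX-1-10 changed SMC4 by -1.76 (standard error 0.11, edgeR adjusted p = 1.53e-07), to 29.5% of the vehicle mean. A strand setting for the read counting is not given in the sources used here, and exons of SMC4 share 18.5% of their bases with TRIM59 and 7.18% with IFT80 on the opposite strand. These neighbours had at most 127 and 535 reads in a library, against 1587 to 5843 for SMC4, and their part in its values was not tested.

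The genes of the condensin I subunits had the widest range of changes. NCAPD2 (ENSG00000010292, chromosome 12, 6493356 to 6531955, plus strand), a HEAT-repeat subunit of condensin I, stood at an FPKM of 70.8, 70.7 and 70.7 with vehicle, 49.6, 56.3 and 53.6 with rimonabant and 24.7, 26.0 and 23.5 with TXX-1-10. The vehicle libraries were nearly identical, and neither treated group reached them. With TXX-1-10 the log2 fold change was -1.52 (standard error 0.06, edgeR adjusted p = 7e-09). On the opposite strand, MRPL51 covers 7.49% of the exonic bases of NCAPD2. It had 2631 to 2915 reads with vehicle and 1812 to 2387 with TXX-1-10, against 7839 to 7914 and 2811 to 3103 for NCAPD2. The part of MRPL51 in the NCAPD2 values was not tested.

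NCAPG (ENSG00000109805, chromosome 4, 17810902 to 17844862, plus strand), the other HEAT-repeat subunit of condensin I, showed the sharpest contrast between the compounds. Its FPKM was 33.0, 31.6 and 29.96 with vehicle, 30.3, 30.8 and 30.3 with rimonabant and 6.24, 6.37 and 6.35 with TXX-1-10. Rimonabant libraries lay inside the vehicle range, whereas the TXX-1-10 libraries were far below it, with 575 to 592 reads against 2539 to 2771. The log2 fold change under TXX-1-10 was -2.32 (standard error 0.05, edgeR adjusted p = 3.35e-10), to 20.1% of the vehicle mean. LCORL lies on the opposite strand and shares 33.1% of the exonic bases of NCAPG. It had 456 to 491 reads with vehicle and 489 to 635 with TXX-1-10, so it was not lower with TXX-1-10, and its part in the NCAPG values was not tested.

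NCAPH (ENSG00000121152, chromosome 2, 96335787 to 96373845, plus strand) is the kleisin that closes the condensin I ring. Vehicle libraries gave an FPKM of 22.7, 22.2 and 21.0, rimonabant replicates 2 and 3 gave 17.5 and 16.2, and TXX-1-10 libraries gave 6.84, 6.57 and 6.73. Again the groups did not overlap, and the TXX-1-10 libraries spread by only 2.02% of their mean (coefficient of variation). In the fit without rimonabant replicate 1, NCAPH fell by 1.71 on the log2 scale with TXX-1-10 treatment (standard error 0.06, edgeR adjusted p = 1.76e-10).

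The genes of the condensin II subunits fell as well, by less than TOP2A and NCAPG. NCAPD3 (ENSG00000151503, chromosome 11, 134150119 to 134225454, minus strand), the HEAT-repeat counterpart of NCAPD2, had FPKM values of 18.4, 19.4 and 18.9 with vehicle, 15.7, 19.5 and 17.8 with rimonabant and 8.06, 8.02 and 6.66 with TXX-1-10. Rimonabant libraries spread across the vehicle range, and the TXX-1-10 libraries were well below it. The change under TXX-1-10 was -1.32 on the log2 scale (standard error 0.09, edgeR adjusted p = 4.82e-07). On the opposite strand, JAM3 shares 5.1% of the exonic bases of NCAPD3, with at most 61 reads, and VPS26B shares 2.73%. VPS26B had 1189 to 1247 reads with vehicle and 840 to 959 with TXX-1-10, against 2863 to 3042 and 1117 to 1416 for NCAPD3. Their part in the NCAPD3 values was not tested. NCAPG2 (ENSG00000146918, chromosome 7, 158631311 to 158704829, minus strand), the counterpart of NCAPG, read 40.3, 39.0 and 39.4 with vehicle, 32.7, 36.3 and 33.6 with rimonabant and 13.9, 15.9 and 14.7 with TXX-1-10. Its 3 groups were separate, with the rimonabant libraries close to vehicle. Its change under TXX-1-10 was -1.42 in log2 units (standard error 0.06, edgeR adjusted p = 1.26e-08).

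NCAPH2 (ENSG00000025770, chromosome 22, 50508216 to 50523472, plus strand), the kleisin of condensin II, moved least of the 10 genes under TXX-1-10. Its FPKM was 16.5, 16.1 and 16.8 with vehicle, 17.6 and 17.8 in rimonabant replicates 2 and 3 and 8.36, 7.92 and 9.03 with TXX-1-10. The rimonabant pair was just above vehicle, and TXX-1-10 was near the middle between vehicle and 0. Its log2 fold change under TXX-1-10, from the fit without rimonabant replicate 1, was -0.96 (95% confidence interval -1.10 to -0.83, edgeR adjusted p = 3.41e-08), so it passed the p threshold and not the fold threshold. Without TXX-1-10 replicate 3 the value was -1.02, which is past both thresholds, and the count of changed genes was then 10 of 10.

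Under TXX-1-10, TOP2A had the largest change of the 10 genes against vehicle, and MKI67 had the largest spread relative to its mean in both treated groups. TOP2A (ENSG00000131747, chromosome 17, 40388516 to 40417950, minus strand) was the most abundant of them per length in vehicle-treated cells, with an FPKM of 132.6, 124.9 and 119.7 in the 3 vehicle libraries. The rimonabant libraries gave 83.4, 97.9 and 92.2, and the TXX-1-10 libraries gave 23.5, 24.5 and 22.2. Each treated group lay below vehicle, and TXX-1-10 lay far below rimonabant. Its reads fell from 13273 to 14581 per vehicle library to 2628 to 2916 per TXX-1-10 library, which is -2.43 on the log2 scale (standard error 0.07, edgeR adjusted p = 1.36e-09) and left 18.6% of the vehicle mean.

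MKI67 (ENSG00000148773, chromosome 10, 128096659 to 128126385, minus strand) had FPKM values of 67.1, 65.2 and 61.8 with vehicle, 35.3, 59.9 and 52.3 with rimonabant and 18.8, 20.6 and 12.3 with TXX-1-10. The vehicle libraries were close together, while rimonabant replicate 1 and TXX-1-10 replicate 3 were each far below their own replicates. The coefficient of variation was 4.1% with vehicle, 25.6% with rimonabant and 25.2% with TXX-1-10. Under TXX-1-10 the log2 fold change was -1.91 (standard error 0.21, edgeR adjusted p = 1.65e-05), and without both of those libraries it was -1.72 (standard error 0.05, edgeR adjusted p = 8.51e-19). The p-values of that smaller fit cannot be set beside those of the main fit. In it NCAPH kept -1.71 with a standard error of 0.07 against 0.06, yet its edgeR adjusted p went from 1.76e-10 to 2.12e-20.

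Rimonabant moved these genes much less, by the size of their log2 fold changes. None of the 10 was changed by the rule above in edgeR, and none was in DESeq2 or limma. Over all genes, edgeR changed 0.614% of the 4236 to a lower level with 9 libraries and 0.758% of the 9369 with 8. At such shares a count of none among 10 is not read as a result about these genes. At an unadjusted p under 0.05, 6 of the 10 were lower, beside 28.6% of all genes tested in the 9-library fit and 26.3% in the 8-library fit. At an adjusted p under 0.05 with no fold threshold, 5 were lower, which are SMC4, NCAPD2, NCAPG2 and TOP2A in the 9-library fit and NCAPH in the 8-library fit, where 25.2% and 22.8% of all genes tested were lower by that rule. The median log2 fold change of the 10 genes was -0.30 over the values of both fits. With all 10 taken from the 8-library fit it was -0.19. The medians over all genes tested were -0.02 with 9 libraries and 0.003 with 8. Rimonabant and TXX-1-10 were compared with the same 3 vehicle libraries, so these values are not independent of those above.

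By role, the changes under rimonabant were uneven. SMC4 had the largest, with a log2 fold change of -0.51 (95% confidence interval -0.74 to -0.29, edgeR adjusted p = 0.00227), and SMC2 had -0.19 (interval -0.37 to -0.02, edgeR adjusted p = 0.0689). TOP2A fell by 0.46 on the same scale (edgeR adjusted p = 0.000463). Within condensin I, NCAPD2 fell by 0.41 (edgeR adjusted p = 0.000298) and NCAPH by 0.38 (edgeR adjusted p = 0.000505, 8 libraries), whereas NCAPG had a change of -0.05 with an interval of -0.15 to 0.05. Within condensin II, NCAPG2 fell by 0.21 (edgeR adjusted p = 0.013), while NCAPD3 had a change of -0.10 (interval -0.29 to 0.10) and NCAPH2 of 0.10 (interval -0.04 to 0.25, 8 libraries). The interval of MKI67 was the widest, from -0.85 to 0.06 around -0.40 (edgeR adjusted p = 0.136).

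Some of these calls moved with the 2 libraries that stand apart. Without both of them, MKI67 had a log2 fold change of -0.21 under rimonabant with an edgeR adjusted p of 0.000911, and SMC2 had -0.12 with 0.0276, so 7 of the 10 genes were lower by the adjusted p alone. As given for NCAPH above, the p-values of that fit cannot be set beside those of the main fit. Leaving out TXX-1-10 replicate 3 alone, which enters this comparison only through the shared estimate of the spread, gave the same 7 genes, with MKI67 at -0.40 and an edgeR adjusted p of 0.043. Calls over all genes rose as well, in either direction by the adjusted p alone, from 2071 of 4236 to 2907 without both libraries and 2380 without TXX-1-10 replicate 3. In the genes of the 8 lists they rose from 4360 of 9369 to 5801. The share of genes called lower in these settings is not given here, so the rise to 7 is not read as a result about these genes. Leaving out rimonabant replicate 1 alone kept the 5 named genes, with MKI67 at -0.21 and an edgeR adjusted p of 0.336. Leaving out rimonabant replicate 3 left 4 of the 5, without NCAPG2. Of the 8 genes of the 9 lists, 6 had all rimonabant values below all vehicle values, as did 31.5% of the 4236 genes, and the values of NCAPG and NCAPD3 overlapped with vehicle.

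**Figure D2:**
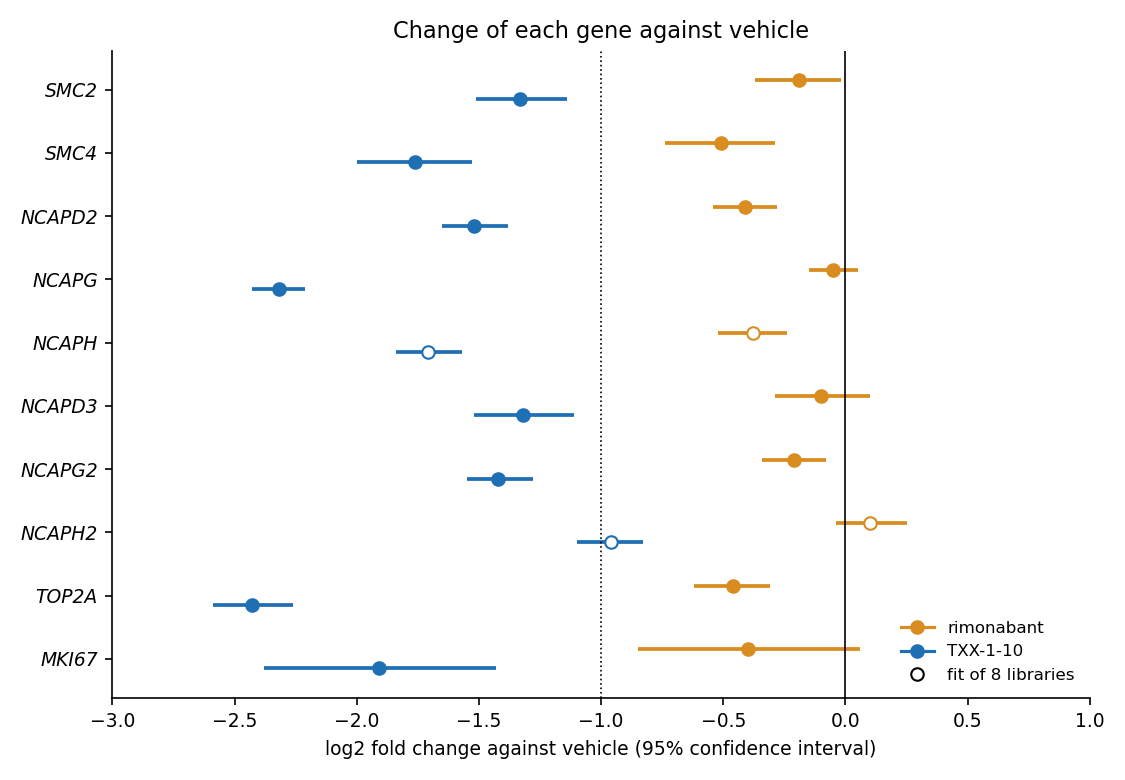
Log2 fold change of each gene against vehicle (horizontal axis) under rimonabant and TXX-1-10, with bars for the 95% confidence interval. Open circles are from the fit of 8 libraries, the dotted line marks a log2 fold change of -1, and all TXX-1-10 values lie between -2.43 and -0.96 while all rimonabant values lie between -0.51 and 0.10.

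Compared directly, TXX-1-10 and rimonabant differed in all 10 genes. All 8 genes of the 9-library fit and both of the 8-library fit were changed to a lower level under TXX-1-10, where 4.34% and 4.31% of all genes tested were. The median log2 difference was -1.23, and the 8 genes of the 9 lists had no TXX-1-10 value above a rimonabant value, as did 38.8% of the 4236 genes. NCAPG differed most, with -2.27 (standard error 0.05, edgeR adjusted p = 1.62e-09), followed by TOP2A with -1.96 (0.07, edgeR adjusted p = 1.44e-08) and MKI67 with -1.51 (0.21, edgeR adjusted p = 0.000132). The remaining 7 genes differed by -1.33 to -1.07, which are the values of NCAPH and NCAPH2, with SMC2 at -1.13, SMC4 at -1.25, NCAPD2 at -1.10, NCAPD3 at -1.22 and NCAPG2 at -1.21. Several of these sit near the fold threshold, and under quantile normalization with limma 7 of the 10 were changed. SMC2, NCAPD2 and NCAPH2 then had -0.99, -0.99 and -0.96. Since the doses of the sequenced cells are not given, the 2 compounds are set side by side here as they were used and not at a known matched dose.

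The balance of the 2 condensin complexes was read within each library, which cancels the library size. It does not cancel the trend with gene length in rimonabant replicate 1 and TXX-1-10 replicate 3. The ratio of the summed FPKM of NCAPD2, NCAPG and NCAPH to that of NCAPD3, NCAPG2 and NCAPH2 was 1.68, 1.67 and 1.62 in the vehicle libraries, 1.42 and 1.45 in rimonabant replicates 2 and 3 and 1.24, 1.23 and 1.20 in the TXX-1-10 libraries. Condensin I transcripts were thus lower relative to condensin II transcripts in each treated group, with no overlap between the 3 groups. On the log2 scale the means were 0.73 ± 0.03 (SD, n = 3) with vehicle, 0.52 ± 0.02 (n = 2) with rimonabant and 0.29 ± 0.02 (n = 3) with TXX-1-10. With these group sizes an exact permutation test over libraries cannot give a two-sided p below 0.1, so the ratios are given as values and ranges.

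Under TXX-1-10 each counterpart pair had a ratio below the vehicle range, whereas under rimonabant NCAPG to NCAPG2 lay above it. NCAPG to NCAPG2 had a log2 ratio of -0.33 ± 0.06 (SD, n = 3) with vehicle, -0.17 ± 0.07 with rimonabant and -1.23 ± 0.08 with TXX-1-10. The TXX-1-10 range was far below the vehicle range. The rimonabant range of -0.24 to -0.11 was just above the vehicle range of -0.40 to -0.29, and its top value was that of replicate 1. Under rimonabant the FPKM ranges of single genes were often apart from vehicle, with 31.5% of 4236 genes lower and 29.7% higher. The small rise under rimonabant is therefore not read as a result about this pair. NCAPH to NCAPH2 went from 0.41 ± 0.08 with vehicle to -0.07 ± 0.08 with rimonabant (n = 2) and -0.33 ± 0.08 with TXX-1-10, again without overlap. NCAPD2 to NCAPD3 was 1.91 ± 0.04 with vehicle, 1.59 ± 0.07 with rimonabant and 1.71 ± 0.10 with TXX-1-10. Both treated groups lay below the vehicle range and overlapped each other. TXX-1-10 replicate 3 had 1.82, beside 1.61 and 1.70 in replicates 1 and 2. The SMC core was also uneven, with SMC4 to SMC2 at 0.70 ± 0.01, 0.37 ± 0.09 and 0.26 ± 0.03 in the same order. TOP2A to SMC2 fell from 2.40 ± 0.01 to 2.13 ± 0.07 and 1.30 ± 0.05.

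Per length, the order of the genes changed with the treatment. In vehicle-treated cells the mean FPKM ran from TOP2A (126 ± 6.49, SD, n = 3) through NCAPD2 (70.7 ± 0.0365), MKI67 (64.7 ± 2.65), NCAPG2 (39.6 ± 0.663), SMC4 (38.8 ± 1.75), NCAPG (31.5 ± 1.51), SMC2 (23.9 ± 1.19), NCAPH (21.9 ± 0.831) and NCAPD3 (18.9 ± 0.481) to NCAPH2 (16.5 ± 0.338). NCAPG2 and SMC4 overlapped in range, and all other neighbours in that order were apart. With TXX-1-10 the order began with NCAPD2 (24.7 ± 1.23) and TOP2A (23.4 ± 1.17), which overlapped, and ended with NCAPG (6.32 ± 0.071), which was below all others. SMC2, NCAPH2, NCAPD3 and NCAPH, at 9.52 to 6.71, each overlapped with the next. Among the 9397 genes listed for the 8 libraries, TOP2A ranked 261 by mean FPKM with vehicle, 324 with rimonabant and 1906 with TXX-1-10, and NCAPG ranked 1430, 1441 and 6286.

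The departures of the 2 libraries that stand apart followed gene length within these genes as well. MKI67, the longest at 12807 bases, was at -0.66 in rimonabant replicate 1 and -0.67 in TXX-1-10 replicate 3, as the log2 ratio to the mean of the other 2 replicates. The medians over all genes longer than 10000 bases were -0.192 and -0.188, so MKI67 was further down than a typical gene of its length. SMC4 (8457 bases) was at -0.36 and -0.24, NCAPD3 (9114 bases) at -0.25 and -0.27, and NCAPG (4921 bases) at -0.01 and 0.01. The Spearman rho with length was -0.72 over 8 genes and -0.90 over 10, as a description over genes that share a library. What sets these libraries apart was not tested. With a length offset in the fit, the calls against vehicle were 9 of 10 under TXX-1-10 and 0 of 10 under rimonabant, as without it.

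Promoters were searched for short motifs because cell cycle genes often share them, namely CCAAT, the NF-Y box, TTTGAA and TTCGAA, forms of the cell cycle genes homology region, and TTTGGCGC, TTTCCCGC, TTTCGCGC and TTCCCGCC, forms of the E2F site. The 250 bases before the RefSeq start were searched on both strands (GRCh38.p14). The E2F forms TTTCCCGC and, shifted along it, TTCCCGCC can overlap, and TTCGAA is its own reverse complement. Of the 10 genes, 9 matched the table with 12 starts, since SMC2, SMC4 and NCAPD3 have 2 each, and NCAPH2 had no entry. CCAAT was present in 5 of the 9 (NCAPD2, NCAPH, NCAPD3, TOP2A and MKI67), before 5 of the 12 starts (41.7%), and in 32.0% of 35116 promoters. TTTGAA was present in 5 of the 9 (SMC4, NCAPD2, NCAPG, TOP2A and MKI67), also before 5 of the 12 starts, and in 13.3% of promoters. TTTCCCGC (1.39% of promoters) and TTCCCGCC (2.72%) occurred only before the downstream start of NCAPD3, in overlapping letters. TTCGAA (1.19%), TTTGGCGC (0.55%) and TTTCGCGC (0.439%) had no match before any of the 12 starts. A match is a description of letters and not of a bound factor.

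TOP2A held the most matches, with 4 of CCAAT and 2 of TTTGAA, followed by NCAPD2 with 5 matches and by MKI67 and NCAPD3 with 4 each. Sequence is shown for TOP2A, which held the most and changed most under TXX-1-10, and for MKI67, the proliferation marker, in each case only where no GENCODE exon lies. Both are on the minus strand and are written 5′ to 3′ along the gene, with motif matches in capitals. On this strand CCAAT reads as ATTGG where it lies on the other strand, and TTTGAA then reads as TTCAAA. The TOP2A stretch is chr17:40417951-40418146, from 250 to 55 bases before the start, and leaves out the CCAAT match nearest to the start. The MKI67 stretch is chr10:128126424-128126673, the whole window, and its last 2 matches share 1 base.
TOP2A: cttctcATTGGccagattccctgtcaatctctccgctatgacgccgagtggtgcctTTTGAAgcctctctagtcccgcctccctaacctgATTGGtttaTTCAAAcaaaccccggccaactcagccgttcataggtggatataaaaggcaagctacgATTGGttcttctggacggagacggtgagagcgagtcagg
MKI67: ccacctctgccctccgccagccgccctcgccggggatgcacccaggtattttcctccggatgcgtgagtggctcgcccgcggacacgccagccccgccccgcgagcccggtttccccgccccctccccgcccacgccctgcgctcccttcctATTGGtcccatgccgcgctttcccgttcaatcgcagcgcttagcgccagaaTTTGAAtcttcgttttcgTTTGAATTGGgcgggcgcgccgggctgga

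Most of the genes listed as acting with condensin in mitosis fell alongside it. Of 11 condensin regulators and mitotic chromosome partners, all tested in the 8-library fit, TXX-1-10 changed 9 to a lower level, where 7.39% of genes were, and their median log2 fold change was -1.74 beside -0.042 for all genes. PLK1, the mitotic kinase, had a log2 fold change of -2.30 (edgeR adjusted p = 1.2e-11), CCNB1, the cyclin partner of CDK1, had -1.99 and CDK1 itself had -1.90. CDCA8, a subunit of the chromosomal passenger complex, went from a mean FPKM of 38.0 with vehicle to 9.52 with TXX-1-10 (edgeR adjusted p = 6.86e-11). MCPH1, an inhibitor of condensin II, had 0.35 (edgeR adjusted p = 0.00141), below the fold threshold, and AKAP8 had -0.02 (edgeR adjusted p = 0.774). By the adjusted p alone, TXX-1-10 left 9 of the 11 lower and 1 higher, where 40.6% and 34.7% of genes were. Rimonabant changed 1 of the 11, PLK1, with a log2 fold change of -1.27 (edgeR adjusted p = 5.03e-08), where 0.758% of genes were changed to a lower level, and the median of the list was -0.35. By the adjusted p alone 8 of the 11 were lower, where 22.8% of genes were. CCNB1 lay at the fold threshold, with a mean FPKM of 126.6 with vehicle and 63.4 with rimonabant (edgeR adjusted p = 1.34e-06).

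The related SMC complexes moved less, by the medians of their lists. Of 17 cohesin genes and regulators, 16 were tested and 5 were changed by TXX-1-10, all lower, where 7.39% of genes were changed to a lower level, with a median of -0.66. They were ESCO2 (-2.06), ESPL1 (-1.74), SGO1 (-1.55), PTTG1 (-1.33) and CDCA5 (-1.18), which act on cohesion in S phase or on its release, while the ring subunits SMC1A (-0.78), SMC3 (-0.64) and RAD21 (-0.67) passed the p threshold and not the fold threshold. By the adjusted p alone 10 of the 16 were lower and 2 were higher, by up to 0.62, where 40.6% and 34.7% of genes were. Of 6 genes of the SMC5/6 complex, 5 were tested and none was changed, with a median of -0.11. Beside the same 7.39%, a count of none among 5 is not read as a result about this list. SMC5 had -0.38 (edgeR adjusted p = 0.000526) and SMC6 had -0.09 (edgeR adjusted p = 0.141). By the adjusted p alone 2 of the 5 were lower and 1 was higher, and that rise, of 0.57, was the largest change of the list. Under rimonabant none of the cohesin or SMC5/6 genes was changed, with medians of -0.02 and 0.02. Over all genes 0.758% were changed to a lower and 0.736% to a higher level, so this is not read as a result about these lists. By the adjusted p alone 4 of the 16 cohesin genes were lower and 4 higher, where 22.8% and 23.7% of genes were. Of the 5 SMC5/6 genes, 0 were lower and 1 was higher by that rule.

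Among 8 genes of other topoisomerases and their repair enzymes, 7 were tested and TXX-1-10 changed 1, RMI1 (-1.43, edgeR adjusted p = 6.27e-09), a partner of TOP3A in dissolving DNA crossovers. With 7.39% of all genes changed to a lower level, 1 of 7 is not read as a result about this list. By the adjusted p alone 5 of the 7 were lower and 2 were higher, by up to 0.46, where 40.6% and 34.7% of genes were. TOP2B, the topoisomerase II isoform also used by non-dividing cells, had a log2 fold change of -0.27 (edgeR adjusted p = 0.000988) and a mean FPKM of 28.2 with vehicle and 23.4 with TXX-1-10, beside 126 and 23.4 for TOP2A. The isoforms were thus near the same level per length in TXX-1-10-treated cells. TOP1 had -0.37 under TXX-1-10 (edgeR adjusted p = 1.46e-05) and -0.38 under rimonabant (edgeR adjusted p = 0.000141). Of 9 Ki-67 partners and proteins of the mitotic chromosome periphery, all tested, TXX-1-10 changed 1 to a lower level, where 7.39% of genes were. It was CDCA2 (-1.92), a subunit that brings protein phosphatase 1 to chromosomes. At that share, 1 of 9 is not read as a result about this list. By the adjusted p alone 8 of the 9 were lower, where 40.6% of genes were. Rimonabant changed none of the 9, where 0.758% of genes were changed to a lower level, which is likewise not read as a result. All 9 were lower by the adjusted p alone, where 22.8% of genes were. Their median was -0.30, beside -0.19 for the 10 condensin, TOP2A and MKI67 genes in the same fit. NCL, a nucleolar protein, had -0.86 under TXX-1-10 and -0.42 under rimonabant.

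The genes whose log2(FPKM + 1) across libraries was most like that of SMC2, NCAPH2, TOP2A or MKI67 were ranked by Pearson correlation. For TOP2A, over 9 libraries and 4235 other genes, they were ANLN (r 0.9993), SUPT16H, TIMELESS, CIP2A and KIF20B. For SMC2 they included SMURF2 (0.9966), TOPBP1, MT-ND4L and KNL1. For MKI67 they were SMC1A (0.9973), NUP188, GPD2, MGAT5 and IQGAP3. For NCAPH2, over 8 libraries and 9368 other genes, they were ATP6V0E2 (0.9980), ZWINT, AURKB, CDC45 and CDK2. No list held another of the 10 genes. The nearest was TOP2A at rank 13 for SMC2, followed by NCAPG2 at rank 20 for TOP2A, SMC4 at rank 34 for MKI67 and NCAPG at rank 105 for NCAPH2. These correlations are over libraries that fall into 3 groups and include 1 or both of those that stand apart, and they are given as a description.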

How the data were processed

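RNA from MDA-MB-231 cells was sequenced by the authors after oligo(dT) selection with a Dynabeads kit, and libraries were made with the NEBNext Ultra kit. The submitters' processing notes name HISAT2 2.0.5 and featureCounts 1.5.0-p3. For each gene the authors deposited a whole-number read count, without normalization. The FPKM value that the authors deposited with it was made from that count, the gene length and a divisor per library. The divisor was recovered from these 3 values and used as the library size. It is smaller than the summed counts in vehicle replicates 1 and 3, so it may hold a scaling that the sources used here do not give. Of the 27615 gene coordinates, 27590 are those of GENCODE release 29 (GRCh38). An unfinished last line was dropped from each list.

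Counts were fitted with edgeR 4.0.16 in R 4.3.3 (estimateDisp, glmQLFit, glmQLFTest), with all groups in 1 fit, a mean FPKM of at least 1 and Benjamini-Hochberg adjustment over all genes tested. The common biological coefficient of variation was 0.0696 with 9 libraries and 0.0604 with 8. Thresholds (absolute log2 fold change of at least 1, adjusted p under 0.05) are those of a figure legend of the study. Its methods state a fold threshold with an unadjusted p from Cufflinks, which was not used. Standard errors and intervals were derived from the F statistic and are approximate. The alternatives were TMM, DESeq2 1.42.0, limma 3.58.1 on log2(FPKM + 1) and log2(FPKM + 0.1), quantile normalization, other filters, a gene length offset, the replicate block, fits of the compared groups only and each library left out in turn. Promoters came from RefSeq, and Python 3.11.15 was used for tables and plots, with scipy 1.17.1, numpy 2.4.6, matplotlib 3.10.9 and pandas 2.3.3. The fits were tested on simulated counts.

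The 10 genes, the 5 neighbouring lists and the motifs were chosen with earlier results of these data known. The genes named are the 10 genes, at most 4 changed genes of each list and its core subunits, and the 5 genes most correlated with SMC2, NCAPH2, TOP2A and MKI67, of which 1 is not reported here. CDCA5, MCPH1, AKAP8, NCL, TOP1, TOP2B, SMC5, SMC6 and the neighbours on the opposite strand were named after their values were seen or for their role. Each of the 10 genes had at least 396 reads in each library that lists it.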

Additional observations from a re-analysis of the deposited data

How the results depend on the processing

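The count of changed genes against vehicle under TXX-1-10 was 9 of 10, or 10 without TXX-1-10 replicate 3, without both libraries that stand apart, or by the adjusted p alone. Under rimonabant it was 0 except that by the adjusted p alone it was 5. Against rimonabant it was 10, or 9 with limma on log2(FPKM + 1), where NCAPH2 had -0.99, and 7 with quantile normalization. Leaving out each library gave 9 to 10, 0 to 0 and 10 to 10. Of 660 alternative values of the 10 genes, 654 kept their direction and their side of the rule of fold and adjusted p together, 4 fell below the fold threshold, 2 passed it and 0 reversed. By the adjusted p alone, 3 genes under rimonabant crossed 0.05, though p-values of the fit without both libraries cannot be set beside those of the main fit. SMC2 and MKI67 passed without TXX-1-10 replicate 3 (edgeR adjusted p = 0.0366 and 0.043) and without both libraries that stand apart (0.0276 and 0.000911), and NCAPG2 missed it at 0.0501 with quantile normalization in limma and without rimonabant replicate 3 in edgeR.

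Whether the replicate numbers pair the libraries could not be decided. Of 9 same-numbered pairs, 1 had a correlation of deviations over 0.1, with a range of -0.79 to 0.8. Deviations were taken from the group mean, so a library that stands apart also shifts those of its replicates, and the check cannot exclude pairing. With the replicate number as a block, the counts were 9, 0 and 10, and the condensin I to II differences were -0.44, -0.20 and -0.24 against -0.44, -0.21 and -0.23 without it. Leaving out each library, these differences ranged from -0.45 to -0.42, -0.22 to -0.20 and -0.24 to -0.22.

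Scaling moved the median of all genes under TXX-1-10 from -0.095 to 0.004 with TMM and to 0.010 with quantile normalization, and the changed genes of TXX-1-10 against rimonabant from 67 higher and 184 lower to 79 higher and 121 lower with the latter. Lower-count genes, past the end of a list, were left out, and with 3 libraries a group the spread is known only roughly.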
